A study of Mus musculus with 22 samples.

Results

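The genes described here encode 43 histone-modifying enzymes and corepressors: the methyltransferases and demethylases of lysines of histone H3, histone deacetylases and acetyltransferases, the CtBP corepressors and the ATP-dependent remodellers and their partners. They were chosen by name from a list of these enzyme families and not by their values, though earlier results of these data were known. All 43 were found among the 24421 genes of the count table, and all 43 passed the filter on low counts that left 15027 genes to test. RNA-seq was made of forebrain at E13.5 from 3 *Prdm16* KO embryos and 3 control embryos. The KO embryos were homozygous for null alleles of *Prdm16*, which came from conditional gene trap strains (cGT and cGTreinv) that were kept by outcrossing to FVB/NJ. For the controls, the sample labels allow heterozygous or wild-type littermates, whereas the methods speak of wild-type embryos. The sample titles and the column headers call them wt. The tissue is called forebrain in the labels and cortex in the methods. Which embryo carried which allele is not stated, and no Cre driver is named for these embryos. Each embryo goes by the animal number heading its column, and values for them stand in the order F727, F728 and F731 (KO) and F722, F724 and F725 (control). The question addressed was whether forebrain without *Prdm16* had other mRNA levels of the enzymes that write, erase or act on the histone marks PRDM16 is linked with.

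Histone tails carry methyl and acetyl groups that are put on by writers and taken off by erasers. Methylation of H3K4 marks promoters and enhancers in use, methylation of H3K9 and of H3K27 marks silent chromatin, H3K36 and H3K79 methylation lies over transcribed genes, and acetylation opens chromatin. PRDM16 is a zinc-finger transcription factor of cortical radial glia, the neural stem cells of the developing cortex. Its PR domain is related to the SET domain of histone methyltransferases, and methylation of H3K4 and H3K9 has been ascribed to it. It binds the corepressors CTBP1 and CTBP2, which bring deacetylases and H3K9 and H3K4 modifying enzymes to DNA. Most of these enzymes are present in every cell type, and loss of several of them alters the number or the fate of cortical progenitors.

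The depth was 16638433 to 41140614 counts in the KO libraries and 28569526 to 43066648 counts in the control libraries. *Prdm16* had 9.60, 6.58 and 6.82 CPM (counts scaled to the depth of each library and normalized by the TMM method) in the KO embryos, against 58.2, 45.0 and 37.9 CPM in the control embryos, so that every KO library carried the low level its label calls for. All 7 marker genes of forebrain identity were tested and measured in every library, and their summed level was 982.4 to 1388 CPM in KO and 1232 to 1424 CPM in control. KO F731 was unlike the rest. It had the lowest depth, counts in 22991 genes against 17795 to 18320 in the others, and 7.39% of its counts on the ribosomal RNA precursor *Rn45s*, against 2.43% in KO F727 and 0.224% to 0.615% elsewhere. Its summed level of erythroid markers (5 of 6 tested) was 3275 CPM, against 999.6 and 1181 CPM in the other KO embryos and 1134 to 1304 CPM in control embryos. Its summed level of cycling-cell markers (8 of 8 tested) was 1662 CPM, against 2039 and 2128 CPM in the other KO embryos and 1924 to 2094 CPM in control embryos. *Tyms* alone of these went the other way, at 97.0 CPM in KO F731 against 73.0 to 95.2 CPM in control embryos. KO F731 was also the lowest library for intermediate progenitor markers, at 464.8 CPM against 679.6 and 684.4 CPM in the other KO embryos and 666 to 842 CPM in control embryos. It was the highest for microglia markers, at 46.2 CPM against 21.8 and 25.1 CPM in the other KO embryos and 23.4 to 26.3 CPM in control embryos. Of these, *P2ry12* lay within the control range, at 3.24 CPM in KO F731 against 2.79 to 3.91 CPM in control embryos. Endothelial and mural markers summed to 143 CPM in KO F731, against 89.9 and 90.6 CPM in the other KO embryos and 78.6 to 107 CPM in control embryos. Most of that excess was *Cldn5*, at 65.2 CPM in KO F731 against 19.6 to 23.2 CPM in control embryos. *Pecam1*, *Cdh5* and *Kdr* lay within the control range in KO F731, and *Flt1*, *Pdgfrb* and *Rgs5* a little above it. Each group held 1 female embryo by *Xist* and Y-linked counts, KO F731 and control F725. Counts and medians over the 43 genes are therefore given with and without KO F731, and the part of depth, RNA quality and these cell types in them was not tested. Other marker sums differed between the groups. Radial glia markers summed to 3213, 3510 and 3419 CPM in KO, against 3077, 2969 and 2924 CPM in control. Only *Vim* and *Fabp7* of them had all KO embryos above all controls, and *Sox2*, *Slc1a3* and *Pax6* had lower means in KO. Neuron markers summed to 5162, 4750 and 5004 CPM in KO, against 5339, 5894 and 5403 CPM in control. The part of these in the 43 genes was not tested. The fits without KO F731 still hold KO F727, which shared part of its difference. The noncoding RNA *Rmrp* had 15.05, 1.82 and 52.3 CPM in the KO embryos, against 0.871, 0.558 and 0.238 CPM in the control embryos. Ventral telencephalon markers summed to 866.8 CPM in control F725, against 497.4 and 553.4 CPM in the other controls. The KO embryos had 457.5 to 649.9 CPM. Control F725 was the highest library for 13 of the 43 genes, and the part of its make-up in this was not tested.

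None of the 43 genes changed past the threshold in KO forebrain. At an adjusted *P*-value under 0.05 in edgeR's quasi-likelihood test, 0 of the 43 were called, where 0% of all tested genes were. At an unadjusted *P*-value under 0.05, 0 of the 43 passed, where 289 of 15027 tested genes (1.92%) did. DESeq2 called 0 of the 43 at either threshold, and 18 of 15651 genes (0.115%) after adjustment. Its count over all genes at the unadjusted threshold is given with the alternatives below. In edgeR, adjusted *P*-values of the 43 ran between 0.863 and 0.996. The smallest unadjusted *P*-value was 0.135, for *Kdm4a*. Without KO F731, the smallest was 0.0784, for *Suz12*, and again 0 of the 43 passed at either threshold. In that fit, 398 of 15128 tested genes passed at the unadjusted threshold and 0 at the adjusted one.

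A *P*-value that misses the threshold does not show that 2 groups had equal levels, so the intervals are given as well. For 27 of the 43 genes (62.8%), the 95% interval of the log2 fold change of KO over control lay within a fold of 1.5 either way, where 55.3% of all tested genes had such an interval. Without KO F731, this was so for 42 of the 43 (97.7%), where it was so for 72.1% of tested genes. The exception was *Hdac4*, the gene with the lowest level per exonic length, with an interval of -0.78 to 0.50.

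**Figure D1:**
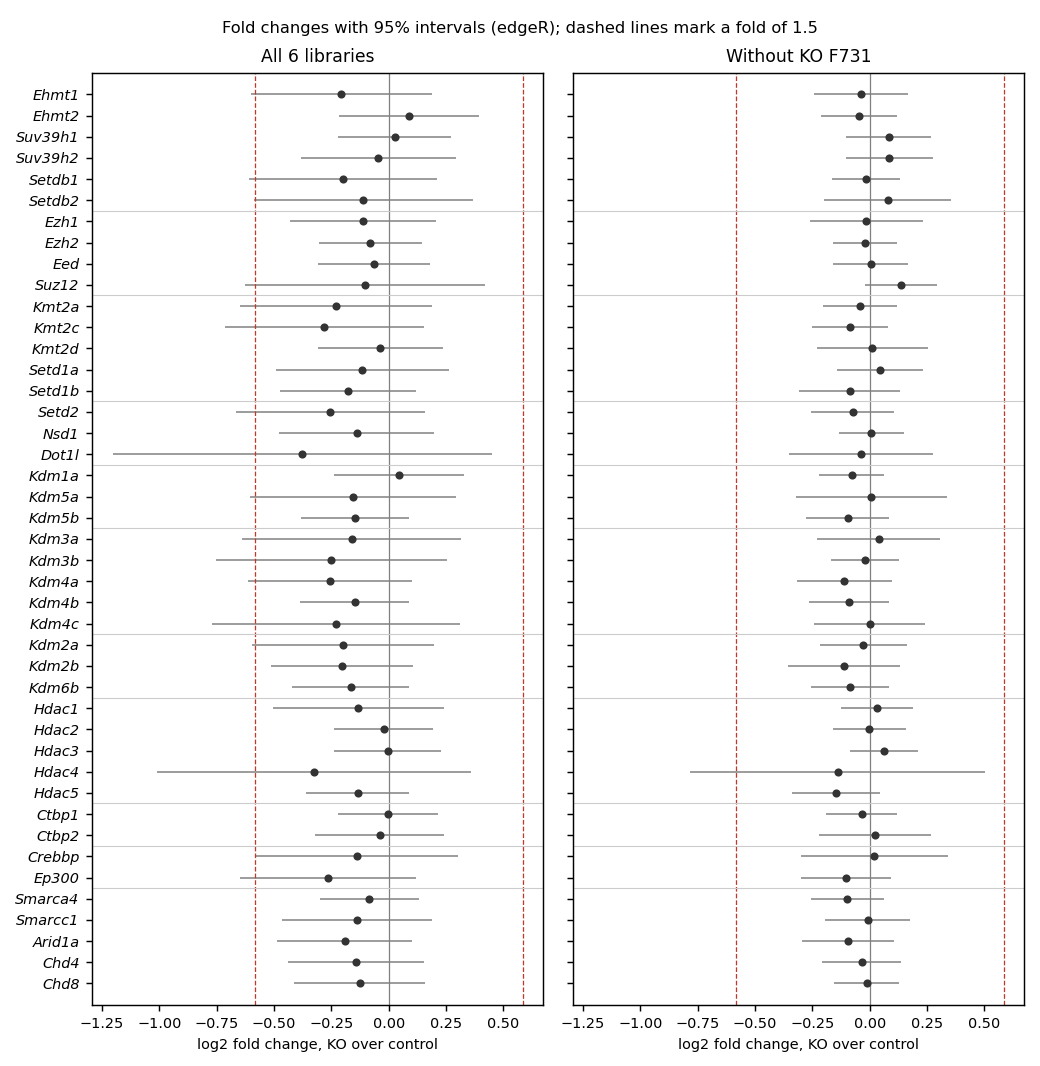
Log2 fold change (KO over control) of the 43 genes, with lines between roles, from edgeR with all 6 libraries (left) and without KO F731 (right); bars are 95% intervals and dashed lines mark a fold of 1.5. With all 6 libraries the points lay between -0.38 (*Dot1l*) and 0.088 (*Ehmt2*), and without KO F731 between -0.15 (*Hdac5*) and 0.14 (*Suz12*), with no gene past the threshold in either fit.

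The fitted values leaned to the lower side, and KO F731 was the lowest library for most genes. With all 6 libraries, 40 of the 43 log2 fold changes were below 0 and 3 were above it, with a median of -0.14, where 50.8% of all tested genes were below 0 and their median was -0.0037. Without KO F731, 29 of the 43 (67.4%) were below 0 and 14 above, with a median of -0.021, where 50.8% of all tested genes were below 0 and their median was -0.0018. A smaller lean to the lower side thus remained without that library. KO F731 was the lowest of the 6 libraries for 36 of the 43 genes (83.7%), where it was the lowest for 38.5% of all tested genes. Measured against the control mean of each gene, the median of the 43 genes was -0.41 on the log2 scale in KO F731, against -0.013 in KO F727 and -0.035 in KO F728. The control embryos had medians of -0.073 (F722), 0.0046 (F724) and 0.048 (F725). Thus KO F727 and KO F728 lay among the controls, and KO F731 lay below them. In these bulk samples, fewer cells of a type and less RNA per cell cannot be told apart.

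**Figure D2:**
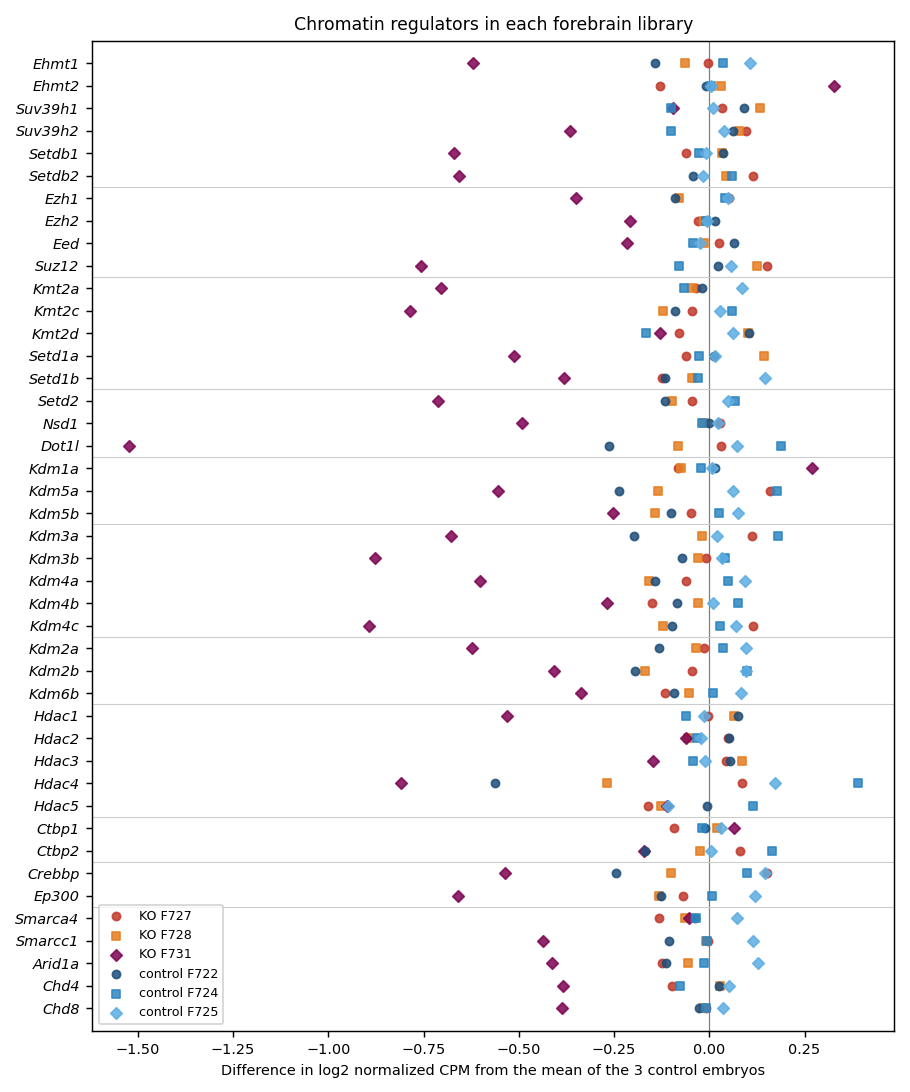
Difference in log2 normalized CPM from the mean of the 3 control embryos (x axis) for each of the 43 genes (rows, with lines between roles); each point is 1 library. The points of KO F731 lie left of the others for most genes (median -0.41), whereas those of KO F727 (median -0.013) and KO F728 (median -0.035) lie among the controls.

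Few genes had KO and control embryos that did not overlap. All 3 KO embryos lay below all 3 control embryos for *Ezh2*, *Hdac5* and *Smarca4*, which is 6.98% of the 43 genes, where 3.55% of all tested genes had this order. The opposite order was seen for 0 of the 43, where 3.86% of tested genes had it. Without KO F731, 4 of the 43 (9.3%; *Ezh2*, *Kdm1a*, *Hdac5* and *Smarca4*) lay lower in both KO embryos, where 6.89% of tested genes did, and 2 (4.65%; *Suv39h2* and *Suz12*) lay higher in both, where 7.37% did.

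The CtBP corepressors are among the partners through which PRDM16 can repress genes. *Ctbp1* (chromosome 5, 33247723 to 33274994, GRCm38) was the most abundant of the 43 genes per exonic length, with 104 ± 5.74 normalized CPM per kilobase (RPKM) in KO and 104 ± 1.88 in control (mean ± SD, 3 embryos each). It had 437, 472 and 487 CPM in the KO embryos, against 462, 459 and 475 CPM in the control embryos. The KO values lay on both sides of the control values, with KO F731 the highest of the 6. Its log2 fold change was -0.0017 ± 0.094 (SE), with a 95% interval of -0.22 to 0.22. *Ctbp2* (chromosome 7, 132987563 to 133124354), whose locus also gives the synaptic ribbon protein RIBEYE, had 105, 97.8 and 88.3 CPM in the KO embryos, against 88.5, 112 and 99.8 CPM in the control embryos. The 2 groups overlapped, and its log2 fold change was -0.040 ± 0.12 (95% interval -0.32 to 0.24). Both intervals of this pair lay within a fold of 1.5. The ratio of *Ctbp1* to *Ctbp2* in RPKM was 5.76, 6.70 and 7.66 in the KO embryos, against 7.26, 5.72 and 6.62 in the control embryos, and the 2 groups overlapped.

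The H3K9 methyltransferases include the pair EHMT1 and EHMT2, which dimethylate H3K9 in euchromatin and can be brought in by CtBP. *Ehmt2* (chromosome 17, 34898469 to 34914052) had 280.2, 313 and 384 CPM in the KO embryos, against 305, 308 and 307 CPM in the control embryos. KO F731 was the highest of the 6 and KO F727 the lowest, and the log2 fold change was 0.088 ± 0.13 with all libraries and -0.047 ± 0.071 without KO F731. *Ehmt1* (chromosome 2, 24789928 to 24919614) had 184, 176 and 120.2 CPM in the KO embryos, against 167, 189 and 199 CPM in the control embryos. Here KO F731 was the lowest of the 6, and the log2 fold change was -0.21 ± 0.17 with all libraries and -0.038 ± 0.087 without KO F731. The ratio of *Ehmt2* to *Ehmt1* in RPKM was 2.25, 2.62 and 4.73 in the KO embryos, against 2.70, 2.40 and 2.29 in the control embryos. KO F731 alone left the range of the others, which spanned 2.25 to 2.70.

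SUV39H1 and SUV39H2 trimethylate H3K9 in the heterochromatin beside centromeres. *Suv39h1*, an X-linked gene, had 80.7, 86.5 and 73.8 CPM in the KO embryos, against 83.9, 73.6 and 79.4 CPM in the control embryos, with a log2 fold change of 0.026 ± 0.11. *Suv39h2* had 41.4, 40.9 and 30.02 CPM in the KO embryos, against 40.4, 36.1 and 39.8 CPM in the control embryos, with -0.046 ± 0.15. Both groups overlapped for each gene. Without KO F731, both KO embryos lay above all controls for *Suv39h2*, at a log2 fold change of 0.086 ± 0.080 that did not pass the test. SETDB1 trimethylates H3K9 at retroelements, with TRIM28 as its partner. *Setdb1* had 122, 131 and 80.4 CPM in the KO embryos, against 131, 126 and 127 CPM in the control embryos, and was low in KO F731 only. Its log2 fold change was -0.20 ± 0.18, and -0.014 ± 0.063 without that library. *Setdb2*, its low-level relative, had 9.52, 9.07 and 5.58 CPM in the KO embryos, against 8.54, 9.17 and 8.70 CPM in the control embryos. Its log2 fold change was -0.11 ± 0.21, and the groups overlapped. Of the 6 genes of this role, 4 had a log2 fold change below 0 with all libraries and 3 without KO F731. *Suv39h1* shares 14.6% of its exonic length with the antisense gene *Gm14820*, and *Suv39h2* 8.1% with *Dclre1c* on the other strand, so their counts are uncertain to that extent.

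The H3K4 methyltransferases of the KMT2 and SETD1 families act in complexes that share core subunits. KMT2C and KMT2D monomethylate H3K4 at enhancers, SETD1A and SETD1B trimethylate it at promoters, and KMT2A is best known for keeping *Hox* genes active. *Kmt2a* had 146, 144 and 91.5 CPM in the KO embryos, against 147, 142 and 158 CPM in the control embryos. *Kmt2c* had 104, 98.4 and 62.1 CPM in the KO embryos, against 101, 112 and 109 CPM in the control embryos. In both genes KO F731 was the lowest library and the other KO embryos were close to the controls. Their log2 fold changes were -0.23 ± 0.18 for *Kmt2a* and -0.28 ± 0.19 for *Kmt2c*. *Kmt2d* had 60.7, 68.8 and 58.6 CPM in the KO embryos, against 68.9, 57.1 and 67.0 CPM in the control embryos. The groups overlapped for *Kmt2d*, whose log2 fold change of -0.036 ± 0.12 was the smallest in size of the 5.

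*Setd1a* had 68.1, 78.5 and 49.9 CPM in the KO embryos, against 71.8, 69.8 and 71.8 CPM in the control embryos. The controls lay close together, and KO F731 alone was far below them. *Setd1a* shares 51.8% of its exonic length with *Gm49388* on the same strand, so reads may be split between the 2 genes. *Setd1b* had 50.01, 52.8 and 41.9 CPM in the KO embryos, against 50.3, 53.5 and 60.3 CPM in the control embryos. Log2 fold changes were -0.12 ± 0.16 for *Setd1a* and -0.18 ± 0.13 for *Setd1b*. The role as a whole had 5 of 5 values below 0 with all libraries and 3 of 5 without KO F731, with medians of -0.18 and -0.042.

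The core of Polycomb repressive complex PRC2 methylates H3K27. EZH2 and EZH1 are its alternative catalytic subunits, EED reads the mark that the complex makes, and SUZ12 holds the complex together. *Ezh2* (chromosome 6, 47530139 to 47595341) had 258, 261 and 228 CPM in the KO embryos, against 267, 262 and 263 CPM in the control embryos. All 3 KO embryos lay below the controls, but KO F728 had nearly the level of control F724, and the log2 fold change was -0.080 ± 0.096 (95% interval -0.30 to 0.14, adjusted *P*-value in edgeR 0.864). *Ezh1*, the form more typical of cells that no longer divide, had 15.9, 14.5 and 12.1 CPM in the KO embryos, against 14.4, 15.8 and 15.9 CPM in the control embryos. *Eed* had 59.99, 58.4 and 50.8 CPM in the KO embryos, against 61.7, 57.2 and 58.0 CPM in the control embryos. Log2 fold changes were -0.11 ± 0.14 for *Ezh1* and -0.063 ± 0.10 for *Eed*, and both groups overlapped in each.

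*Suz12* had 180.4, 177 and 96.3 CPM in the KO embryos, against 165, 154 and 169 CPM in the control embryos. It thus lay above the controls in KO F727 and KO F728 and far below them in KO F731. The log2 fold change was -0.10 ± 0.22 with all libraries and 0.14 ± 0.067 without KO F731, the highest of the 43 in that fit, and neither passed the test. The ratio of *Ezh2* to *Ezh1* in RPKM was 18.1, 20.04 and 21.1 in the KO embryos, against 20.6, 18.5 and 18.4 in the control embryos. The balance of these 2 mRNAs was thus much the same in each embryo, and protein was not measured.

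SETD2 trimethylates and NSD1 dimethylates H3K36, and DOT1L methylates H3K79. *Dot1l* had 56.4, 52.1 and 19.2 CPM in the KO embryos, against 46.0, 63.0 and 58.1 CPM in the control embryos. It had the lowest log2 fold change of the 43, -0.38 ± 0.36, with a 95% interval of -1.20 to 0.45. That value rested on KO F731, for without it the log2 fold change was -0.039 ± 0.13. *Nsd1* had 228, 221 and 159 CPM in the KO embryos, against 223, 220.3 and 227 CPM in the control embryos, and *Setd2* averaged 10.7 ± 2.52 RPKM in KO and 12.8 ± 0.871 RPKM in control. Their log2 fold changes were -0.14 ± 0.14 for *Nsd1* and -0.26 ± 0.18 for *Setd2*.

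Among the H3K4 demethylases, KDM1A removes lower methylation states within the CoREST complex, a complex that CtBP proteins join, and the KDM5 enzymes remove trimethylation. *Kdm1a* (chromosome 4, 136550540 to 136602723) had 299.8, 301 and 383 CPM in the KO embryos, against 321, 313 and 319 CPM in the control embryos. KO F731 was the highest of the 6 and both other KO embryos lay below the controls. The log2 fold change was 0.047 ± 0.12 with all libraries and -0.079 ± 0.060 without KO F731, and so its sign depended on that library. *Kdm5a* had 86.1, 70.2 and 52.5 CPM in the KO embryos, against 65.4, 87.2 and 80.5 CPM in the control embryos. *Kdm5b* had 217, 203 and 188 CPM in the KO embryos, against 209, 228 and 236 CPM in the control embryos. The groups overlapped for both, with log2 fold changes of -0.16 ± 0.19 for *Kdm5a* and -0.15 ± 0.10 for *Kdm5b*.

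The H3K9 demethylases all had log2 fold changes below 0 with the 6 libraries, and 4 of 5 without KO F731, where their median was -0.020. KDM3A and KDM3B remove lower methylation states of H3K9, and the KDM4 enzymes remove trimethylation of H3K9 and H3K36. *Kdm4a* had the smallest unadjusted *P*-value of the 43 genes. It had 185, 173 and 127 CPM in the KO embryos, against 175, 199.7 and 206 CPM in the control embryos, and a log2 fold change of -0.26 ± 0.15 (adjusted *P*-value in edgeR 0.863). Without KO F731, it was -0.11 ± 0.088. *Kdm4b* had 102, 111 and 94.1 CPM in the KO embryos, against 107, 119 and 114 CPM in the control embryos. *Kdm4c* had 30.4, 25.9 and 15.2 CPM in the KO embryos, against 26.3, 28.7 and 29.6 CPM in the control embryos. The *Kdm4b* and *Kdm4c* groups overlapped, with log2 fold changes of -0.15 ± 0.10 for *Kdm4b* and -0.23 ± 0.23 for *Kdm4c*.

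*Kdm3a* had 127, 116 and 73.3 CPM in the KO embryos, against 102, 133 and 119 CPM in the control embryos. *Kdm3b* had 112, 110.3 and 61.3 CPM in the KO embryos, against 107, 116 and 115 CPM in the control embryos. Again KO F731 alone was far below the rest, in both genes, and the log2 fold changes were -0.16 ± 0.21 for *Kdm3a* and -0.25 ± 0.22 for *Kdm3b*. *Kdm3b* shares 24.6% of its exonic length with *Gm26538* on the other strand, which its counts may include.

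KDM2A and KDM2B remove H3K36 methylation, and KDM2B also brings the other Polycomb complex, PRC1, to CpG islands. KDM6B removes H3K27 methylation and so opposes PRC2. *Kdm2b* had 117, 108 and 91.0 CPM in the KO embryos, against 105, 129 and 129 CPM in the control embryos. *Kdm6b* had 106, 111 and 91.5 CPM in the KO embryos, against 108, 116 and 122 CPM in the control embryos. Log2 fold changes of these 2 overlapping sets were -0.20 ± 0.13 for *Kdm2b* and -0.16 ± 0.11 for *Kdm6b*. *Kdm2a* averaged 6.67 ± 1.47 RPKM in KO and 7.67 ± 0.62 RPKM in control, with a log2 fold change of -0.20 ± 0.17. All 3 of these values stayed below 0 without KO F731, with a median of -0.086.

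The class I deacetylases HDAC1 and HDAC2 are the catalytic subunits of the NuRD, SIN3 and CoREST complexes, HDAC3 works with the NCoR and SMRT corepressors, and HDAC4 and HDAC5 are class IIa enzymes that shuttle between nucleus and cytoplasm. *Hdac5* (chromosome 11, 102194432 to 102230166) had 140.5, 144 and 145 CPM in the KO embryos, against 156, 169.9 and 146 CPM in the control embryos. No KO embryo reached the lowest control, but KO F731 and control F725 had nearly the same level, and the log2 fold change was -0.14 ± 0.096 (95% interval -0.36 to 0.087). Without KO F731 it was -0.15 ± 0.081, the lowest of the 43 in that fit, and it passed the threshold in neither. *Hdac4* had 10.9, 8.51 and 5.85 CPM in the KO embryos, against 6.94, 13.4 and 11.6 CPM in the control embryos. Both groups were spread widely, and the log2 fold change of -0.32 ± 0.29 had an interval of -1.01 to 0.36. *Hdac4* shares 22.4% of its exonic length with *Gm26720*, whose reads its counts may hold. *Hdac3* had 142, 147 and 125 CPM in the KO embryos, against 144, 134 and 137 CPM in the control embryos, with a log2 fold change of -0.0034 ± 0.10. *Hdac2*, among the most abundant of the 43 genes, averaged 101 ± 4.43 RPKM in KO and 102 ± 3.25 RPKM in control. *Hdac1* averaged 30.6 ± 6.46 RPKM in KO and 33.6 ± 1.62 RPKM in control, and the log2 fold changes of this pair were -0.022 ± 0.093 for *Hdac2* and -0.13 ± 0.16 for *Hdac1*.

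The acetyltransferases CBP (*Crebbp*) and p300 (*Ep300*) acetylate H3K27 at enhancers and so act against the deacetylases. *Crebbp* had 49.1, 41.3 and 30.5 CPM in the KO embryos, against 37.3, 47.4 and 48.9 CPM in the control embryos. *Ep300* had 99.0, 94.7 and 65.7 CPM in the KO embryos, against 95.1, 104 and 113 CPM in the control embryos. KO F731 was low in both, and the log2 fold changes were -0.14 ± 0.19 for *Crebbp* and -0.27 ± 0.16 for *Ep300*. Without that library they were 0.021 ± 0.14 for *Crebbp* and -0.10 ± 0.083 for *Ep300*.

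Among the remodellers, SMARCA4 is an ATPase of the BAF complex, in which SMARCC1 and ARID1A are structural and DNA-binding subunits, CHD4 is the ATPase of NuRD, and CHD8 binds promoters of active genes. *Smarca4* (chromosome 9, 21616169 to 21704230) had 535, 561 and 565 CPM in the KO embryos, against 571, 573 and 617 CPM in the control embryos. Its groups did not overlap, at a log2 fold change of -0.084 ± 0.093 (95% interval -0.30 to 0.13). *Arid1a* had 240.1, 252 and 196 CPM in the KO embryos, against 242, 259 and 286 CPM in the control embryos, and -0.19 ± 0.13 was the lowest log2 fold change of this role. For the other remodellers, levels in KO and in control were 62.1 ± 8.84 and 68.6 ± 3.17 RPKM for *Chd4*, 26.2 ± 4.26 and 28.8 ± 2.21 RPKM for *Smarcc1*, and 9.31 ± 1.33 and 10.2 ± 0.227 RPKM for *Chd8*. Their log2 fold changes were -0.14 for *Chd4*, -0.14 for *Smarcc1* and -0.13 for *Chd8*. All 5 intervals of the remodellers lay within a fold of 1.5, and all 5 values were below 0 with and without KO F731, with medians of -0.14 and -0.035.

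Levels per exonic length gave an order of abundance among the enzymes. The median of the 43 genes was 14.3 RPKM in control, and 35 of the 43 lay above the median tested gene. *Ctbp1* (104 ± 5.74 RPKM in KO and 104 ± 1.88 RPKM in control) and *Hdac2* came first, and they did not differ beyond their spread. *Smarca4* followed with 85.5 ± 2.50 RPKM in KO and 90.7 ± 3.98 RPKM in control, below them by more than the SDs. Next came *Chd4*, *Kdm1a* (63.3 ± 9.19 RPKM in KO and 61.3 ± 0.829 RPKM in control) and *Ehmt2* (59.4 ± 9.70 RPKM in KO and 55.9 ± 0.272 RPKM in control), whose ranges (mean ± SD) overlapped in KO and not in control. The lower end was held by *Kmt2d* (3.15 ± 0.27 RPKM in KO and 3.23 ± 0.316 RPKM in control), *Setdb2* (1.99 ± 0.533 RPKM in KO and 2.17 ± 0.0817 RPKM in control) and *Ezh1* (1.90 ± 0.262 RPKM in KO and 2.06 ± 0.109 RPKM in control), with *Hdac4* last (0.532 ± 0.159 RPKM in KO and 0.673 ± 0.211 RPKM in control). *Setdb2* and *Ezh1* did not differ beyond their spread. These are long genes, with a median exonic length of 7832 bases (3445 to 20291), where that of all tested genes was 4408 bases. The length counts the exons of every annotated isoform, so a gene with many isoforms gets too low a level.

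**Figure D3:**
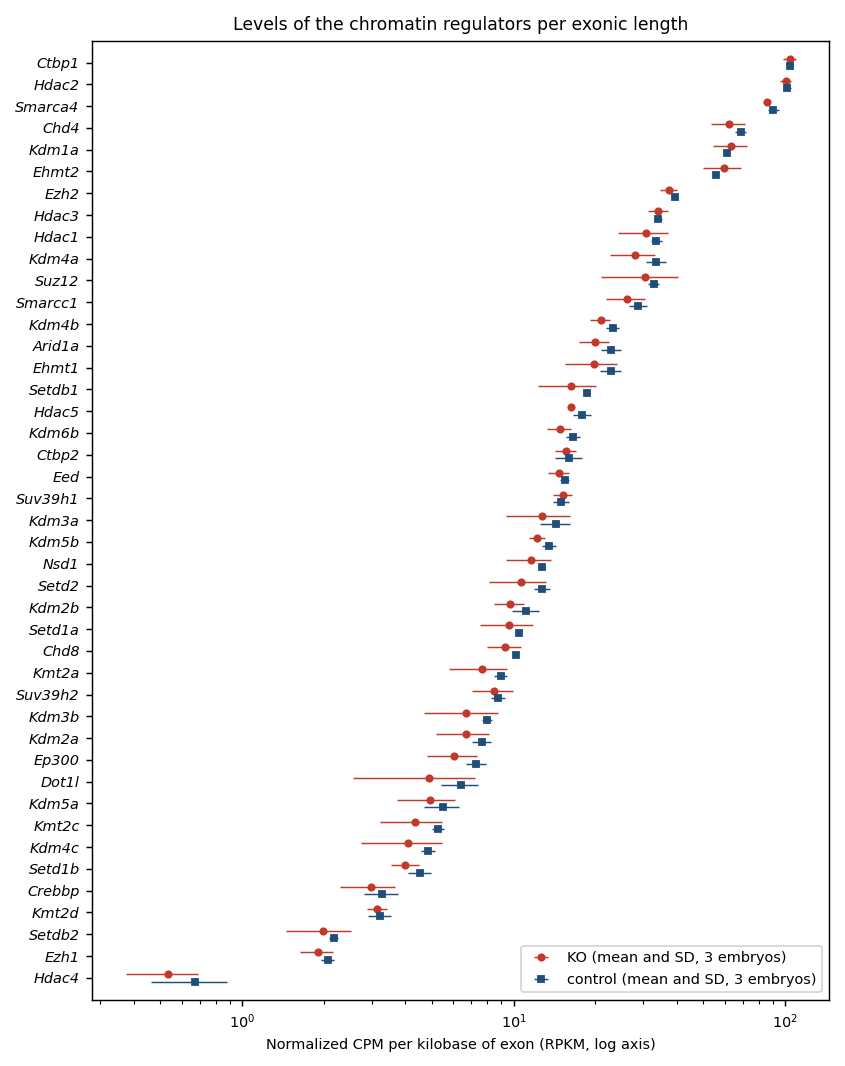
Normalized CPM per kilobase of exon (RPKM, log axis) of the 43 genes in KO and control embryos, ordered by level in control; points are means and bars the SD of 3 embryos. Levels in control spanned 0.673 RPKM (*Hdac4*) to 104.0 RPKM (*Ctbp1*), and the means of the 2 groups lie close together beside that span.

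The balance between the mRNAs of related enzymes was also compared in RPKM, as a description and with no test. *Hdac2* exceeded *Hdac1* in every embryo, with a ratio of 3.15, 2.80 and 4.21 in the KO embryos, against 2.99, 3.10 and 3.02 in the control embryos. *Suv39h1* exceeded *Suv39h2*, with a ratio of 1.63, 1.77 and 2.06 in the KO embryos, against 1.74, 1.71 and 1.67 in the control embryos. *Kdm5b* exceeded *Kdm5a*, with a ratio of 2.15, 2.47 and 3.07 in the KO embryos, against 2.74, 2.24 and 2.51 in the control embryos. In these 3 pairs the highest ratio was that of KO F731, and the other KO embryos lay nearer the controls. *Kmt2c* against *Kmt2d* was the pair in which KO F731 had the lowest ratio, 1.68, 1.41 and 1.04 in the KO embryos, against 1.44, 1.92 and 1.60 in the control embryos. *Ep300* exceeded *Crebbp*, with a ratio of 1.91, 2.18 and 2.04 in the KO embryos, against 2.42, 2.09 and 2.19 in the control embryos, and these overlapped. Across the 15 pairs compared, which gene of a pair was the more abundant did not change between embryos.

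**Figure D4:**
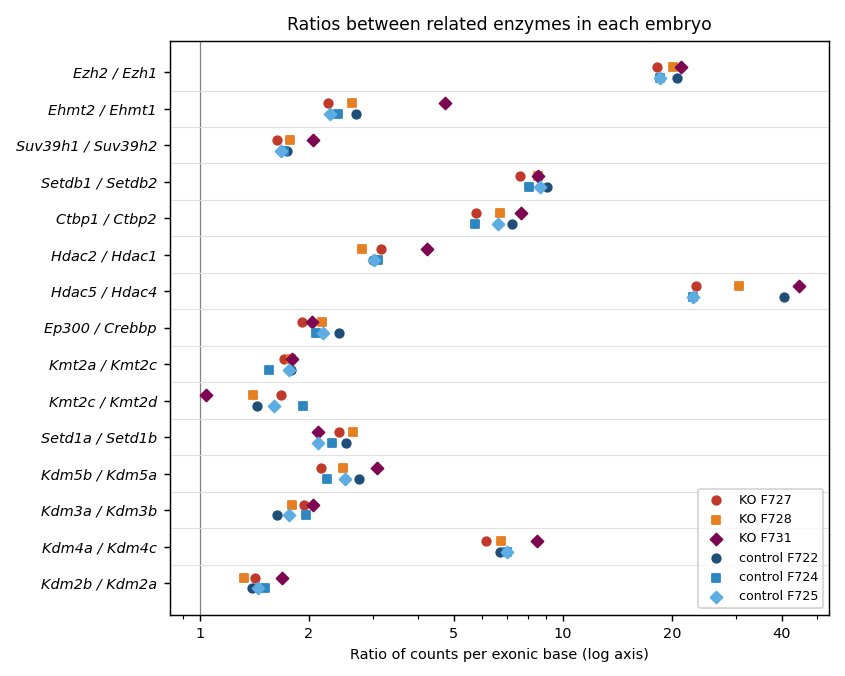
Ratio of RPKM between related enzymes in each embryo (log axis), with KO embryos above control embryos in each pair. *Ehmt2* over *Ehmt1* is the pair in which KO F731 (4.73) stands farthest from the other embryos (2.25 to 2.70), whereas *Ezh2* over *Ezh1* spans 18.1 to 21.1.

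The enzymes' partners and relatives were examined with a longer list of 183 chromatin genes, other Polycomb, H3K4 and H3K9 proteins, corepressor subunits, readers and DNA methylation enzymes, of which 182 were tested. At the adjusted threshold, 0 were called in either direction in edgeR, where DESeq2 called *Prdm16* and *Mecom* and 0.115% of all genes. At an unadjusted *P*-value under 0.05 in edgeR there was 1 higher, *Mecom*, and 1 lower, the knocked-out *Prdm16* itself. Of all tested genes, 1.92% passed that unadjusted threshold. Of the log2 fold changes of this longer list, 144 were below 0 and 38 above (median -0.11), where 50.8% of all tested genes were below 0. Without KO F731, 102 were below 0 and 80 above (median -0.011), where the share of all tested genes was again 50.8%. *Mecom*, the closest relative of *Prdm16*, had 12.6, 17.0 and 8.81 CPM in the KO embryos, against 1.68, 3.97 and 3.23 CPM in the control embryos. Its log2 fold change was 2.12 ± 0.35 (edgeR adjusted *P*-value 0.635, DESeq2 adjusted *P*-value 0.000149), beside -2.61 ± 0.22 for *Prdm16* (edgeR adjusted *P*-value 0.0536, DESeq2 adjusted *P*-value 7.09e-24). The X-linked demethylases were read beside the sex of the embryos. *Kdm5c*, which removes H3K4 methylation, had 151, 154 and 133 CPM in the KO embryos, against 144, 157 and 219.8 CPM in the control embryos, of which KO F731 and control F725 are female. *Kdm6a*, which removes H3K27 methylation, had 41.8, 35.6 and 29.1 CPM in the KO embryos, against 31.8, 42.4 and 55.3 CPM in the control embryos. The female control was the highest of the 6 in both genes and the female KO embryo the lowest. Their Y-linked counterparts *Kdm5d* and *Uty* had at most 1 count in the female embryos. With embryo sex as a covariate, 0 of the 43 enzymes were called, where 1 of all tested genes was.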

How the data were processed

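Forebrain RNA-seq of 3 *Prdm16* KO and 3 control embryos was analysed from the deposited table of raw counts per gene. The authors used Trimmomatic for trimming and HISAT2 for alignment to mm10, and deposited counts over the iGenomes UCSC genes with no normalization. Which program counted them, with which strand setting and which rule for multiple matches, is not given in the sources used here. Counts of overlapping genes are therefore uncertain. The 6 columns used bear animal numbers absent from the labels and were treated as unnumbered replicates. The other 18 columns of samples, and the ChIP-seq and ATAC-seq data, were not used here.

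Counts were filtered with filterByExpr (minimum count 10), scaled by TMM and tested with edgeR 4.0.16 in R 4.3.3 (glmQLFit, robust, and glmQLFTest), with *P*-values adjusted by Benjamini-Hochberg over all 15027 tested genes and 0.05 as threshold. The absolute log2 fold change over the square root of F gave the standard error. A two-sided exact permutation test of 3 against 3 embryos cannot go below 0.1 and was not used. Where TPM had been planned for comparing genes, TMM-normalized CPM per kilobase of exon (RPKM) was used, because TPM is not scaled between libraries. Positions and exonic lengths come from GENCODE vM21 (GRCm38), which matched 23381 of 24421 symbols. Alternatives were DESeq2 1.42.0 (the study's tool), limma-voom 3.58.1, RLE and upper-quartile scaling, no filter, offsets for length and GC content, embryo sex as a covariate, and each library left out in turn. DESeq2 without KO F731 was added after seeing the data. The fits were also run on simulated counts. There all libraries shared the same gene levels apart from the set fold changes, so an outlier like KO F731 was not covered.

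Every member was named, with values per embryo for the H3K9 and H3K4 enzymes, the CtBP pair, genes without overlap and the largest and smallest log2 fold change of each role. The members and lists were chosen with earlier results of these data known.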

Additional observations from a re-analysis of the deposited data

How the results depend on the processing

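Of the 43 enzymes, 0 were called at an adjusted *P*-value under 0.05 under any alternative tried. Over all genes, edgeR called 0, against 18 in DESeq2, 1 with no filter, 1 with embryo sex as a covariate and 33 in DESeq2 without KO F731. Genes with an unadjusted *P*-value under 0.05 numbered 289 in edgeR, against 796 in DESeq2, 619 with no filter, and 118 to 999 when a library was left out. The count of enzymes with an interval within a fold of 1.5 (27) was 19 to 42 when a library was left out. No paired analysis was possible because the columns carry animal numbers, which the labels do not pair with replicate numbers.

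The signs of small log2 fold changes turned with the setting, none of them called; the cause was not tested. In DESeq2 without KO F731, the values were -0.050 for *Ehmt2*, -0.082 for *Kdm1a*, 0.083 for *Suv39h2*, 0.074 for *Setdb2*, 0.0024 for *Eed*, 0.13 for *Suz12*, 0.0073 for *Kmt2d*, 0.042 for *Setd1a*, 0.0039 for *Nsd1*, 0.0060 for *Kdm5a*, 0.036 for *Kdm3a*, 0.028 for *Hdac1*, 0.061 for *Hdac3*, 0.020 for *Ctbp2* and 0.018 for *Crebbp*. With no filter they were -0.011 for *Suv39h1* and -0.00097 for *Kdm1a*. With offsets for length and GC content, *Kmt2d* had 0.026. RLE scaling gave 0.00095 for *Hdac3* and 0.0030 for *Ctbp1*, and upper-quartile scaling 0.0055 for *Hdac2*, 0.022 for *Hdac3* and 0.028 for *Ctbp1*. Leaving out each library in turn gave ranges of -0.047 to 0.18 for *Ehmt2*, -0.035 to 0.083 for *Suv39h1*, -0.13 to 0.086 for *Suv39h2*, -0.24 to 0.078 for *Setdb2*, -0.11 to 0.0052 for *Eed*, -0.25 to 0.14 for *Suz12*, -0.12 to 0.012 for *Kmt2d*, -0.27 to 0.045 for *Setd1a*, -0.23 to 0.0066 for *Nsd1*, -0.079 to 0.10 for *Kdm1a*, -0.34 to 0.0077 for *Kdm5a*, -0.32 to 0.038 for *Kdm3a*, -0.24 to 0.031 for *Hdac1*, -0.063 to 0.0011 for *Hdac2*, -0.054 to 0.064 for *Hdac3*, -0.036 to 0.038 for *Ctbp1*, -0.12 to 0.044 for *Ctbp2* and -0.31 to 0.021 for *Crebbp*.

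Precision is limited by 3 embryos per group, and KO F731 had the lowest depth and the largest deviation of the 6 libraries. The sample titles and column headers call the controls wt, but other label text allows heterozygous littermates, so their genotype remains uncertain.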
